A study of Mus musculus with 4 samples.

Results

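Vesicle coats are protein shells that bend a membrane, gather cargo and bud off as transport vesicles. COPI coats carry proteins back through the Golgi and to the endoplasmic reticulum (ER), COPII coats carry new proteins out of the ER, clathrin with its adaptor complexes works at the Golgi, endosomes and plasma membrane, and the retromer returns receptors from endosomes. Small GTPases of the Sar and Arf families switch most of these coats on, and in alveolar type 2 cells the same routes feed the storage and release of surfactant. The 44 coat genes described here are the listed subunits of COPI (9 genes), COPII (8), the small GTPases (7), clathrin with its assembly protein Picalm and the dynamin Dnm2 (5), the adaptors AP-1 (4), AP-2 (5) and AP-3 (3), and the retromer (3). They were chosen by name from the 53465 genes of the count table, and 43 of them passed the filter on low counts, as did 7738 genes in all.

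Polyadenylated RNA was sequenced with a strand-keeping kit from MLE-12 (the labels also name the tissue lung), a permanent epithelial line of mouse lung that was made from lung tumours of mice carrying a viral large T antigen under a surfactant gene promoter. The 2 treated libraries (replicates 2 and 3) came from cells kept with 5 µM 1-nitropyrene, a nitrated polycyclic hydrocarbon of diesel exhaust, for 12 h, and the 2 control libraries (replicates 1 and 2) from cells kept without it. Nothing in the labels says that the libraries of a group came from separate cultures, so the p-values measure only the spread between these libraries, which may be technical. Levels are TMM-scaled CPM, which adjust counts for library size, given per library and as mean ± SD (n = 2 libraries per group). Changes are log2 fold changes of 1-nitropyrene over control from edgeR's quasi-likelihood test, and a gene was called at a Benjamini-Hochberg adjusted p under 0.05 over all 7738 genes. The fit set each gene's spread from that of genes of similar level, so a gene whose own replicates lie far apart gets no wider error for it.

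The libraries held 8797502 and 8601825 counts with 1-nitropyrene and 10773733 and 6908055 in the controls, of which the coat genes took 0.716% and 0.720% against 0.698% and 0.719%. Ribosomal RNA loci took 44.5% and 44.3% of all counts with 1-nitropyrene and 46.1% and 45.8% in the controls; these shares moved with the group and stand in the CPM, and a fit without those loci made the same number of coat-gene calls (9 higher, 1 lower). Of 21942 protein-coding genes, 12111 had 0 counts in all 4 libraries. Why so many were at 0 was not tested, so a low or 0 count below is a number of assigned reads and not a shown low level of the transcript. The line's label was checked against 12 markers of lung epithelium: 9 had 0 counts in every library, among them the keratins Krt8 and Krt18, E-cadherin (Cdh1), Nkx2-1 and the surfactant gene Sftpb. The lipid transporter Abca3 alone made up all of their summed level with 1-nitropyrene (9.43 and 8.02 CPM of total counts), and 10.1 of 10.4 CPM and all of 8.11 CPM in the controls. The other 11 markers had 0 and 0 counts with 1-nitropyrene and 3 and 0 in the controls, so the check did not bear out the label. The 8 fibroblast markers were low throughout, with 16 and 9 summed counts with 1-nitropyrene and 74 and 24 in the controls. Their part in the changes below was not tested. In a bulk sample, fewer cells of a type and less RNA per cell cannot be told apart.

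Of the 43 coat genes tested, 9 rose and 1 fell with 1-nitropyrene. The small subunit of AP-2 (Ap2s1) moved most, to 1.52 times control, and the Golgi GTPases Arf4, Arf1 and Arf5, the COPI subunit Copb1, the COPII cargo adaptor Sec24c, the AP-1 subunits Ap1g1 and Ap1m1 and the retromer scaffold Vps35 rose by 1.09 to 1.38 times. The plasma membrane GTPase Arf6 fell to 0.910 times control. The share called (23.3%) lay next to that of all tested genes (24.5%), so being called did not set the coat genes apart. By direction, 20.9% of coat genes were higher, beside 13.2% of all tested genes, and 2.33% were lower, beside 11.2%; no test of that difference was made. The median log2 fold change was 0.03 over the coat genes and -0.0035 over all tested genes, while the median size of change was smaller in the coat genes (0.10 against 0.20 on the log2 scale). The coat genes were also more abundant, with a median level of 75.0 CPM with 1-nitropyrene and 72.4 CPM in controls, against 16.5 and 16.7 CPM over all tested genes. DESeq2 called 4 coat genes higher and 1 lower, beside 10.8% of all tested genes. Among tested genes of at least 10 CPM, 34.3% of all were called and 25.0% of the 40 coat genes.

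**Figure D1:**
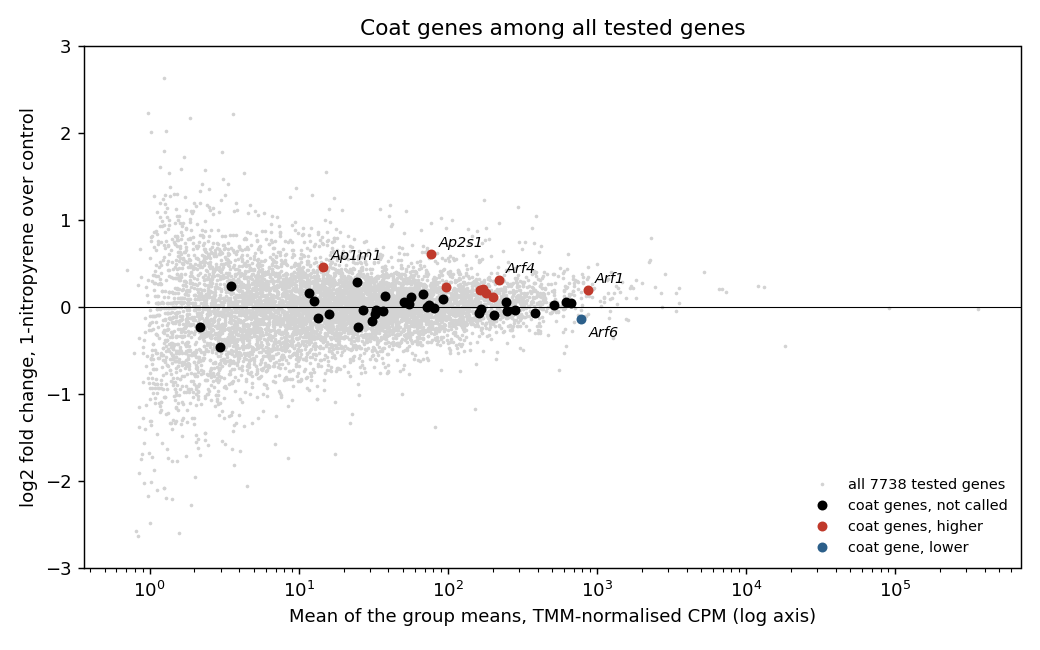
Each point is a gene, with its mean level in TMM-normalised CPM on a log axis and its log2 fold change (1-nitropyrene over control) on the other; grey points are all 7738 tested genes, and 5 genes beyond 3 log2 units are not shown. Coat genes (black where not called, red where higher, blue where lower) lie close to 0, with Ap2s1 at 0.61 the highest.

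Both 1-nitropyrene libraries lay above both controls for 15 coat genes and below both for 11, and the groups overlapped for 17. Over all tested genes 30% lay above both controls, 29.2% below, and 59.2% did not overlap, a share close to the 26 of 43 coat genes. The p-values come from those same libraries, so the separation of the called genes adds no support to their calls.

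**Figure D2:**
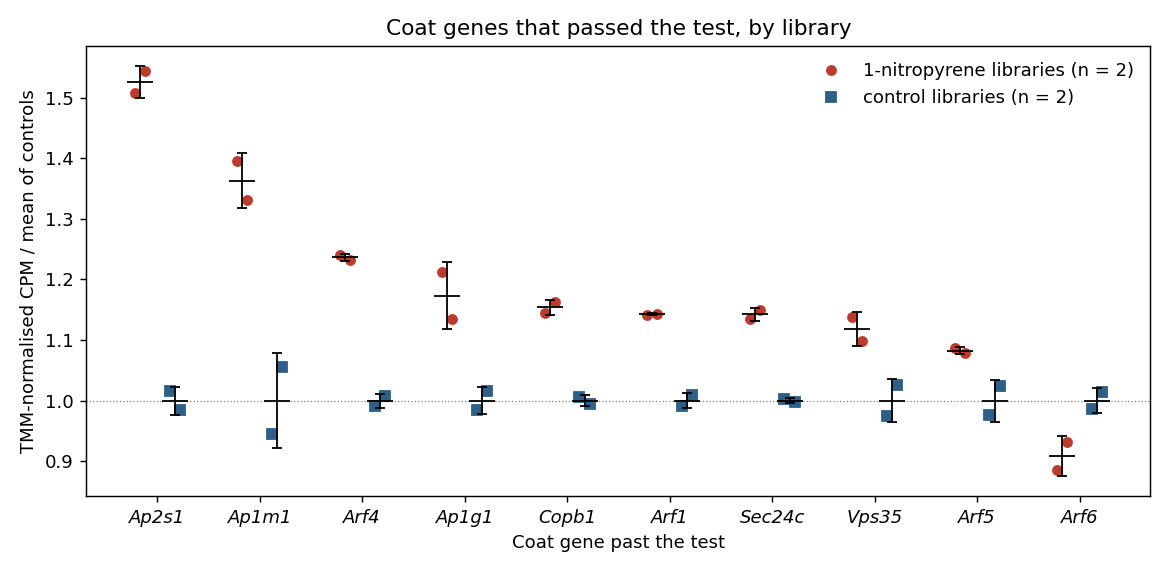
The level of each called coat gene in each library, divided by the mean of its 2 controls (red circles 1-nitropyrene, blue squares control, n = 2 each; bars are mean ± SD). In every one of these 10 genes the groups are apart, as they are in 59.2% of all tested genes. The margin is widest in Ap2s1 and narrow in Arf5 and Arf6.

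Promoters were searched for motifs, shown here because COPI and COPII genes are among the known targets of stress factors of the ER. The letters TGACGTGG, a known binding motif of the ER stress factors XBP1 and ATF6, were searched on both strands in RefSeq promoter windows of GRCm38.p6, from 250 bases before to 50 after a gene's start. That table holds 46 windows of 40 coat genes and 32851 windows of 27025 genes in all; the called Arf6, Ap1m1 and Vps35 and the uncalled Arcn1 have none and were not searched. The letters were in a window of 5 of the 40 coat genes (12.5%), beside 0.714% of all genes, a difference that was not tested. All genes here means every gene of the promoter table, with or without reads. Nearly all coat genes passed the filter on low counts, so the sets compared are unlike. Shown are 28 bases around each match, with TGACGTGG in capitals, read on the strand that carries it.
Copb1: agtccttggcTGACGTGGaagggggcgg
Arf1: cggcaggcgcTGACGTGGctgccgtcag
Sec24d: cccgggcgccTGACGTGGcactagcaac
Sec23a: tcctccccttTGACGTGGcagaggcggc
Copb2: gccaacccacTGACGTGGaacttccggg
These lie at chr7:114254691-114254718 on the plus strand (Copb1), chr11:59228229-59228256 on the minus strand (Arf1), chr3:123267460-123267487 on the plus strand (Sec24d), chr12:59011994-59012021 on the minus strand (Sec23a) and chr9:98563714-98563741 on the minus strand (Copb2). The match is within 21 bases of a RefSeq start in all 5 genes. Copb1 and Arf1 rose, while Sec24d, Sec23a and Copb2 were not called, with log2 fold changes of 0.24, -0.16 and -0.03. A match is a run of letters and not a shown binding site.

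In total 12 sets of letters were searched, against the same unlike set of all genes. ACGTGGC, which overlaps TGACGTGG by ACGTGG, was in 10 of 40 coat genes (25.0%, beside 2.95% of all genes), among them the called Arf1, Arf5 and Sec24c. TGACGTCA was in 3 coat genes (2.03% of all genes) and TCACGTGA in 2 (1.12%). TGATGCAA (1.03% of all genes), the NRF1 motif (1.07%) and the ER stress response element (0.137%) were in the window of 0 of the 40. TGACG, which lies within TGACGTGG and TGACGTCA, was in 62.5% of the 40 coat genes and 23.0% of all genes. GGGCGG was in 85.0% of the coat genes and 38.2% of all genes, and CCGGAAG in 32.5% and 9.93%. CACGTG, which lies within TCACGTGA, was in 12.5% and 8.09%, and CCAAT in 35.0% and 41.1%. The Ap2s1 window held GGGCGG and CCGGAAG.

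COPI, the coatomer, is a complex of several subunits that is recruited whole to the Golgi by Arf1. All 9 genes were tested, and 1 rose and none fell by edgeR, beside 13.2% of all tested genes higher and 11.2% lower. That gene alone had an unadjusted p under 0.05, beside 2651 of all 7738 tested genes. The beta subunit Copb1 (GRCm38 chromosome 7, 114215559 to 114254711), part of the adaptor-like inner layer, had 182 and 185 CPM with 1-nitropyrene and 160.1 and 158 CPM in control. The log2 fold change was 0.21 with an SE of 0.05 (adjusted p = 0.000331). Both treated libraries stood above both controls. DESeq2 kept the call (adjusted p = 0.0300).

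The other coatomer subunits were not called. Copa, the alpha subunit of the outer cage, had 94.0 and 96.0 CPM with 1-nitropyrene and 84.8 and 94.4 CPM in control (log2 fold change 0.10, SE 0.06, adjusted p = 0.303, edgeR). Copb2, the beta-prime subunit of the same cage, had 158 and 170.3 CPM against 161 and 175 CPM in control, so its groups overlapped. Arcn1, the delta subunit, was the most abundant coatomer transcript per kilobase of exon (35.1 CPM per kilobase with 1-nitropyrene, 34.5 in control), and its ratio to control was 1.02 with a 95% interval of 0.972 to 1.06. Cope, the epsilon subunit, had 35.9 and 43.6 CPM with 1-nitropyrene against 38.8 and 32.7 CPM. The paralogues Copg1 and Copg2, alternative gamma subunits, had log2 fold changes of -0.08 and -0.04.

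The alternative zeta subunits Copz1 and Copz2 were not called either. Copz1 had 32.5 and 30.7 CPM with 1-nitropyrene and 32.6 and 34.5 CPM in control. Copz2 was the least even of the coatomer genes, with 94 and 121 counts in the treated libraries and 85 and 126 in controls 1 and 2, or 10.8 and 14.2 CPM against 7.82 and 18.1 CPM. Its log2 fold change was 0.07, which became 0.67 without control replicate 2 (adjusted p = 0.0253, edgeR) and -0.53 without control replicate 1.

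COPII forms at ER exit sites, where Sec23 and Sec24 make the inner layer and Sec13 and Sec31 the outer cage. Of 8 genes 7 were tested, and 1 rose and none fell by edgeR, beside 13.2% of all tested genes higher and 11.2% lower. Of the 7, 2 had an unadjusted p under 0.05, beside 2651 of all 7738 tested genes. Sec24c (chromosome 14, 20674308 to 20694852), a cargo adaptor, had 173 and 175 CPM with 1-nitropyrene and 153 and 152 CPM in control. Its log2 fold change was 0.19 with an SE of 0.05 (adjusted p = 0.00124). The treated pair lay above the control pair. DESeq2 did not call it (adjusted p = 0.0542). It shares 214 bp of exon with the opposite-strand 6230400D17Rik, which had 10 to 31 counts per library where Sec24c had 1061 to 1663.

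The other Sec24 adaptors were assigned few reads or none. Sec24a, close in sequence to Sec24b, had 125 and 98 counts with 1-nitropyrene and 164 and 88 in control, and Sec24d, the partner of Sec24c in sequence, 32 and 35 against 43 and 16. Sec24b had 0 counts in all 4 libraries, which allows at most 0.341 and 0.349 CPM in the treated libraries and 0.278 and 0.434 CPM in the controls (a floor of 3 counts, for counting error only). The outer cage genes also had few reads: Sec31a had 11.6 and 13.0 CPM with 1-nitropyrene and 10.2 and 12.3 CPM in control, and Sec13, also a nuclear pore subunit, 10 and 23 counts against 18 and 22. Neither separated the groups.

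The paralogues Sec23a and Sec23b, which activate the Sar1 GTPase, had log2 fold changes of opposite sign, neither of them called. Sec23b had 26.1 and 27.9 CPM with 1-nitropyrene and 20.6 and 24.2 CPM in control (log2 fold change 0.29, SE 0.12, adjusted p = 0.0714, edgeR). Sec23a had 27.9 and 30.1 CPM with 1-nitropyrene and 31.2 and 34.3 CPM in control (-0.16, SE 0.11, adjusted p = 0.312). Of the reads assigned to the pair, Sec23a took 51.7% (95% Wilson interval 47.2 to 56.2) and 51.9% (47.5 to 56.3) with 1-nitropyrene, and 60.2% (56.1 to 64.2) and 58.6% (53.7 to 63.3) in control. The groups did not overlap, but with 2 libraries against 2 an exact permutation test cannot go below p = 0.333, the value reached here (two-sided).

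**Figure D3:**
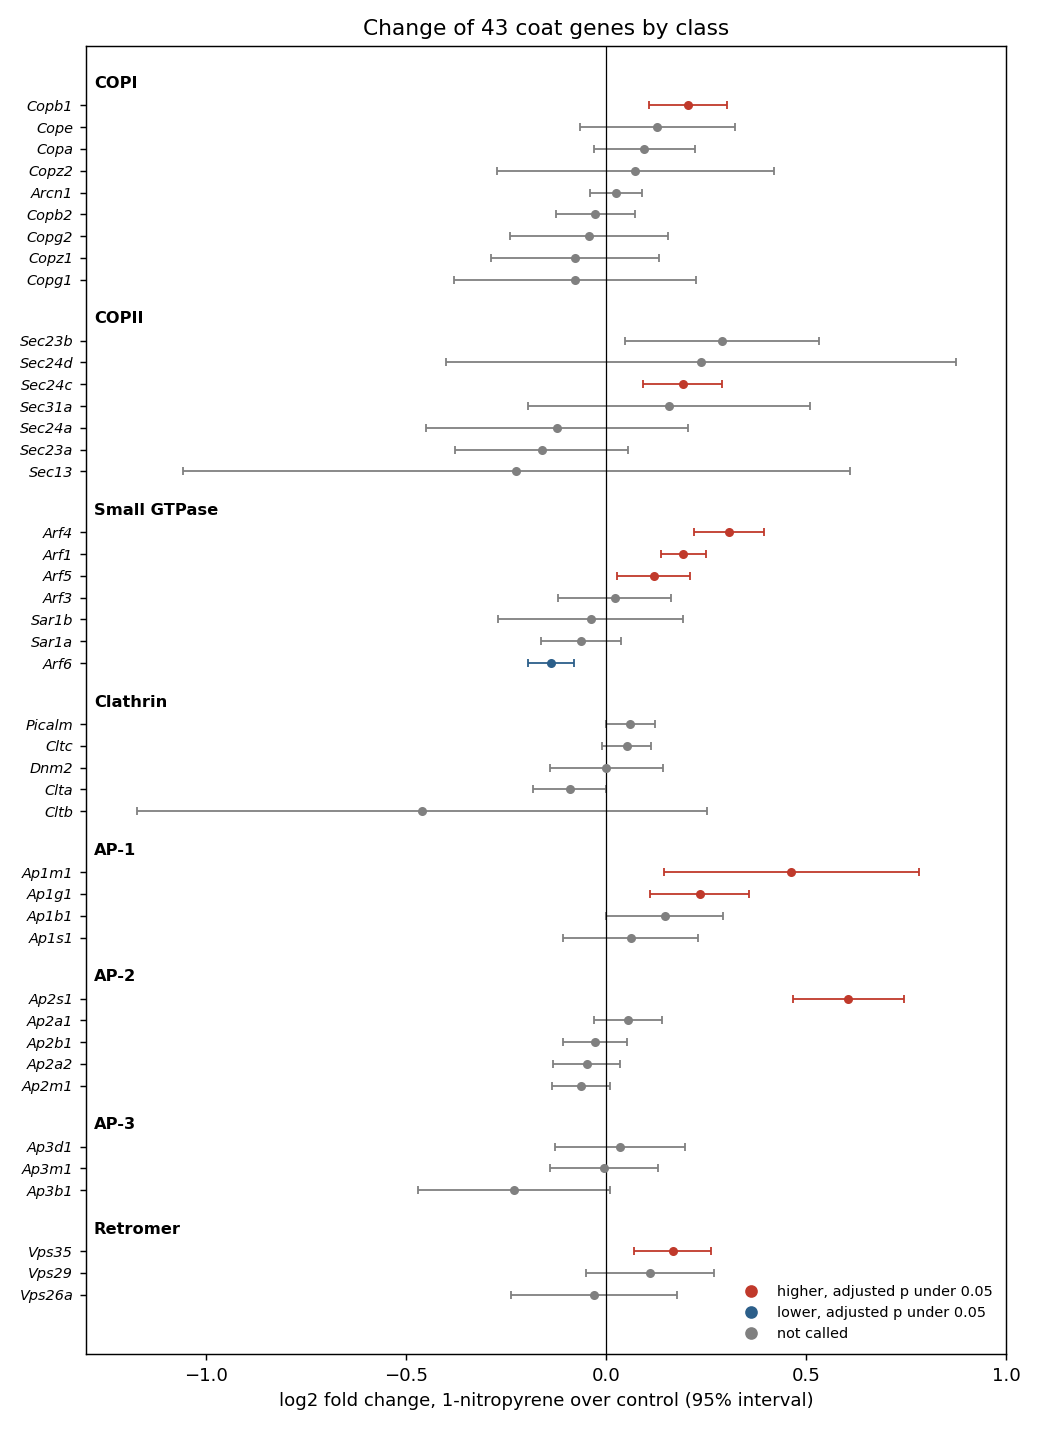
Log2 fold change of the 43 tested coat genes (1-nitropyrene over control) with its 95% interval from the fit, by class; red points are higher and the blue point lower at an adjusted p under 0.05, grey points were not called. Intervals are widest for the genes with few counts (Sec13, Sec24d, Cltb) and narrow for Arf1, Arf6, Cltc and Picalm.

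Sar1 starts COPII assembly, Arf1 recruits COPI and the Golgi clathrin adaptors, Arf4 and Arf5 act at the Golgi beside it, and Arf6 acts at the plasma membrane in endocytosis and actin remodelling. Of the 7 small GTPase genes 3 rose and 1 fell, beside 13.2% of all tested genes higher and 11.2% lower, and 1 of the 3 (Arf5) kept its call in 3 of 15 alternatives. Arf4 (chromosome 14, 26638074 to 26665084) had 243 and 241 CPM with 1-nitropyrene and 194 and 197 CPM in control, or 0.31 on the log2 scale with an SE of 0.05 (edgeR, adjusted p = 2.73e-10). Arf1 (chromosome 11, 59211412 to 59228270) had 923 and 924 CPM against 802 and 815 CPM, or 0.19 on the log2 scale with an SE of 0.03 (adjusted p = 5.95e-10). In these 2 genes the treated libraries differed from each other by far less than from the controls, and DESeq2 called both.

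Arf6 (chromosome 12, 69372150 to 69373783) went the other way. It had 728 and 767 CPM with 1-nitropyrene and 811 and 834 CPM in control. On the log2 scale that is -0.14 with an SE of 0.03 (adjusted p = 4.55e-05 in edgeR and 0.00382 in DESeq2). Both treated libraries lay below both controls, although they differed from each other by more than the controls did. Arf5, of the same class as Arf4, had 210.5 and 209 CPM with 1-nitropyrene and 189 and 199 CPM in control (0.12, SE 0.05, adjusted p = 0.0445, edgeR). Its call was the weakest, lost in DESeq2 (adjusted p = 0.281) and without any single library (adjusted p up to 0.459).

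Not called by edgeR in this group were Sar1a, Sar1b and Arf3. Sar1a had 160.4 and 159 CPM with 1-nitropyrene and 164 and 169.8 CPM in control, a ratio of 0.957 (95% interval 0.894 to 1.03). Sar1b had 249 and 204 counts against 278 and 204. Arf3, the closest relative of Arf1, had 72.9 and 77.1 CPM with 1-nitropyrene, inside its control values of 68.7 and 81.1 CPM. The Arf1 share of reads of the Arf1 and Arf3 pair was 92.7% and 92.3% with 1-nitropyrene and 92.1% and 90.9% in control, and the Arf4 share of the Arf4 and Arf5 pair was 53.6% in both treated libraries and 50.7% and 49.9% in control (exact permutation p = 0.333 for each, the smallest possible).

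Overlaps in the annotation touch several of these genes. Arf4 shares 637 bp of exon with the opposite-strand genes Arf4os and Pde12, Arf5 313 bp with Gcc1 and Arf6 209 bp with Gm9887. These partners had few reads: Arf4os 65 and 62 counts with 1-nitropyrene and 83 and 63 in control, beside 2113 and 2054 against 2112 and 1378 for Arf4, and Gm9887 had 0. Of the distinct 50-base words in Arf1 transcripts, 10.5% also occur in transcripts of other genes, all of them processed pseudogenes, so reads could be split among them.

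No clathrin gene passed the test. The coat is built of heavy chains (Cltc) and light chains (Clta, Cltb), Picalm sets its size on endocytic pits, and Dnm2 cuts the neck of the pit. None of the 5 genes was called by edgeR or by DESeq2, beside 24.5% and 10.8% of all tested genes. By limma-voom none of the 5 was called either, beside 937 genes higher and 743 lower of all 7738. In edgeR 1 of the 5 had an unadjusted p under 0.05 (Clta), beside 2651 of all 7738 tested genes. Cltc had 685 and 677 CPM with 1-nitropyrene and 647 and 668 CPM in control, a ratio of 1.04 (95% interval 0.994 to 1.08). Picalm had 644 and 623 CPM against 602 and 613 CPM, also a ratio of 1.04 (0.999 to 1.09). In both genes the treated values were the higher ones, by less than 1.1 times at the upper bound.

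Clta had 199 and 194 CPM with 1-nitropyrene and 209.9 and 208 CPM in control (log2 fold change -0.09, SE 0.05, adjusted p = 0.145, edgeR), and it was called lower without scaling (adjusted p = 0.0397) and with a filter at 10 CPM (adjusted p = 0.0416). Cltb was assigned 22 and 20 counts with 1-nitropyrene and 31 and 29 in control. Dnm2 had 72.1 and 73.3 CPM with 1-nitropyrene, within the 74.1 and 70.7 CPM of the controls.

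Each adaptor complex has 2 large subunits, a medium one and a small one; AP-1 works at the Golgi and endosomes, AP-2 at the plasma membrane and AP-3 on the way to lysosomes. AP-2 showed the strongest change of all coat genes and at the same time 4 subunits without a call. Ap2s1 (chromosome 7, 16738410 to 16749294), the small subunit that binds dileucine sorting signals together with the alpha subunit, had 92.2 and 94.5 CPM with 1-nitropyrene and 62.2 and 60.2 CPM in control. Its log2 fold change was 0.61 with an SE of 0.07 (edgeR, adjusted p = 7.83e-16), a ratio of 1.52 with a 95% interval of 1.38 to 1.68. Each group's libraries lay within a few CPM of each other and far from those of the other group. No 50-base word of its transcripts occurs in another gene's transcripts, and no annotated exon overlaps it on the opposite strand.

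The large and medium AP-2 subunits were not called. The alpha subunits Ap2a1 and Ap2a2 had 251 and 249 CPM against 239.8 and 242 CPM, and 248 and 242 CPM against 251 and 257 CPM. The beta subunit Ap2b1 had 279.8 and 279 CPM with 1-nitropyrene and 283 and 288 CPM in control. The medium subunit Ap2m1, which reads tyrosine sorting signals, had 359 and 391 CPM against 387 and 396 CPM (log2 fold change -0.06, adjusted p = 0.224); without 1-nitropyrene replicate 3 it was called lower (-0.12, adjusted p = 0.0256, edgeR). In Ap2m1, 28.8% of the 50-base words occur in other transcripts, pseudogenes among them. The 95% intervals of these 4 ratios lay between 0.911 and 1.10. Ap2s1 made up 7.50% (95% Wilson interval 7.01 to 8.01) and 7.53% (7.04 to 8.04) of the counts of the 5 AP-2 genes with 1-nitropyrene, and 5.09% (4.73 to 5.47) and 4.84% (4.41 to 5.32) in control. These shares do not overlap, and an exact permutation test of 2 against 2 libraries can only reach 0.333. The share was added after seeing the data and rests on the same counts as the Ap2s1 call, so it adds no support to that call.

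In AP-1, 2 of the 4 listed genes rose and none fell by edgeR, beside 13.2% of all tested genes higher and 11.2% lower. The small subunit Ap1s2, kept in another list below, was called lower (log2 fold change -0.29, SE 0.10, adjusted p = 0.0212, edgeR). Ap1g2 and Ap1s3 of that list were not called (adjusted p = 0.0530 and 0.544, edgeR). Of the 4, 3 had an unadjusted p under 0.05, beside 2651 of all 7738 tested genes. Ap1g1 (chromosome 8, 109778554 to 109864204), the large gamma subunit, had 109 and 102 CPM with 1-nitropyrene and 88.4 and 91.3 CPM in control (log2 fold change 0.23, SE 0.06, adjusted p = 0.00167). It shares 1435 bp of exon with the opposite-strand Gm17344, which had 27 to 46 counts per library. Ap1m1 (chromosome 8, 72240018 to 72257385), the medium subunit that binds cargo, had 17.3 and 16.5 CPM with 1-nitropyrene and 11.7 and 13.0 CPM in control (0.46, SE 0.16, adjusted p = 0.0215). The treated values were higher in both genes. DESeq2 called neither (adjusted p = 0.0826 and 0.215). Ap1g1 also lost its call without 1-nitropyrene replicate 2 (adjusted p = 0.0628) and without control replicate 1 (0.0874), and Ap1m1 without a filter (0.0603), without 1-nitropyrene replicate 2 (0.119) or 3 (0.0562) and without control replicate 1 (0.286), all in edgeR. Ap1b1, the large beta subunit, had 73.1 and 70.7 CPM against 64.0 and 66.4 CPM (adjusted p = 0.143, edgeR), and the small subunit Ap1s1 53.7 and 50.1 CPM against 48.7 and 51.3 CPM.

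AP-3 had no call among its 3 listed genes in edgeR or DESeq2, beside 24.5% and 10.8% of all tested genes. None had an unadjusted p under 0.05 in edgeR, beside 2651 of all 7738 tested genes. The small subunits Ap3s1 and Ap3s2, kept in another list below, were called by edgeR in opposite directions. Ap3s1 was higher (0.16, SE 0.05, adjusted p = 0.0091). Ap3s2, at 34 and 30 counts with 1-nitropyrene and 58 and 55 in control, was lower (-0.77, SE 0.28, adjusted p = 0.0292). DESeq2 called neither. Ap3b1, the large beta subunit of AP-3, was at 21.2 and 24.8 CPM with 1-nitropyrene and 27.4 and 26.2 CPM in control (log2 fold change -0.23, SE 0.12, adjusted p = 0.169, edgeR). Both treated values were lower. Ap3d1, the large delta subunit, had a ratio of 1.02 (95% interval 0.916 to 1.15) and the medium subunit Ap3m1 one of 0.997 (0.907 to 1.09). Ap3m1 shares 2090 bp of exon with the opposite-strand Vcl, which had 896 and 943 counts with 1-nitropyrene and 1336 and 825 in control and was itself called lower (log2 fold change -0.18, adjusted p = 0.0145, edgeR). Its part in the Ap3m1 values was not tested.

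Of the 3 listed retromer genes Vps35 rose and none fell, beside 13.2% of all tested genes higher and 11.2% lower. Vps35 (chromosome 8, 85260392 to 85299802), the scaffold that joins the other subunits, had 193 and 186 CPM with 1-nitropyrene and 165 and 174 CPM in control, which is 0.17 on the log2 scale with an SE of 0.05 (edgeR, adjusted p = 0.00434). The call was lost in DESeq2 (adjusted p = 0.111), without 1-nitropyrene replicate 2 (adjusted p = 0.0625) and without control replicate 1 (adjusted p = 0.209). Vps29, bound at one end of Vps35, had 60.4 and 57.8 CPM against 53.3 and 56.8 CPM (adjusted p = 0.352), and Vps26a, at the other end, 34.2 and 31.5 CPM against 33.9 and 33.0 CPM (adjusted p = 0.879). Vps26b, kept in the list of retromer partners below, had 121 and 114 CPM with 1-nitropyrene and 133 and 126 CPM in control. It was called lower by edgeR (log2 fold change -0.14, SE 0.06, adjusted p = 0.0474) and not by DESeq2.

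The order of levels among the coat genes was much the same in both groups when expressed per kilobase of annotated exon. Arf6 stood first with 487 ± 17.7 CPM per kilobase with 1-nitropyrene and 536 ± 10.9 in control, and Arf1 next with 442 ± 0.568 and 387 ± 4.63. Arf5 (110.0 ± 0.520 with 1-nitropyrene, 102 ± 3.51 in control) and Clta (109 ± 2.17 and 116 ± 0.594) followed and changed places between the groups, within 1 SD of each other with 1-nitropyrene. Ap2m1 (91.0 ± 5.48 and 95.05 ± 1.66) and Cltc (80.1 ± 0.683 and 77.4 ± 1.70) came next. Ap2s1 held rank 8 with 1-nitropyrene, at 63.4 ± 1.08, and rank 11 in control, at 41.6 ± 0.953. At the low end, Sec24d, Sec13 and Cltb had 0.616, 0.605 and 0.501 CPM per kilobase with 1-nitropyrene and 0.494, 0.755 and 0.720 in control, and their spreads overlapped in the controls. Within COPII, Sec24c (27.7 and 24.2) was far above its cage partners Sec31a (1.56 and 1.43) and Sec13. How completely the reads of each gene were assigned was not tested, and exon length counts every annotated exon, so levels of different genes compare only roughly.

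**Figure D4:**
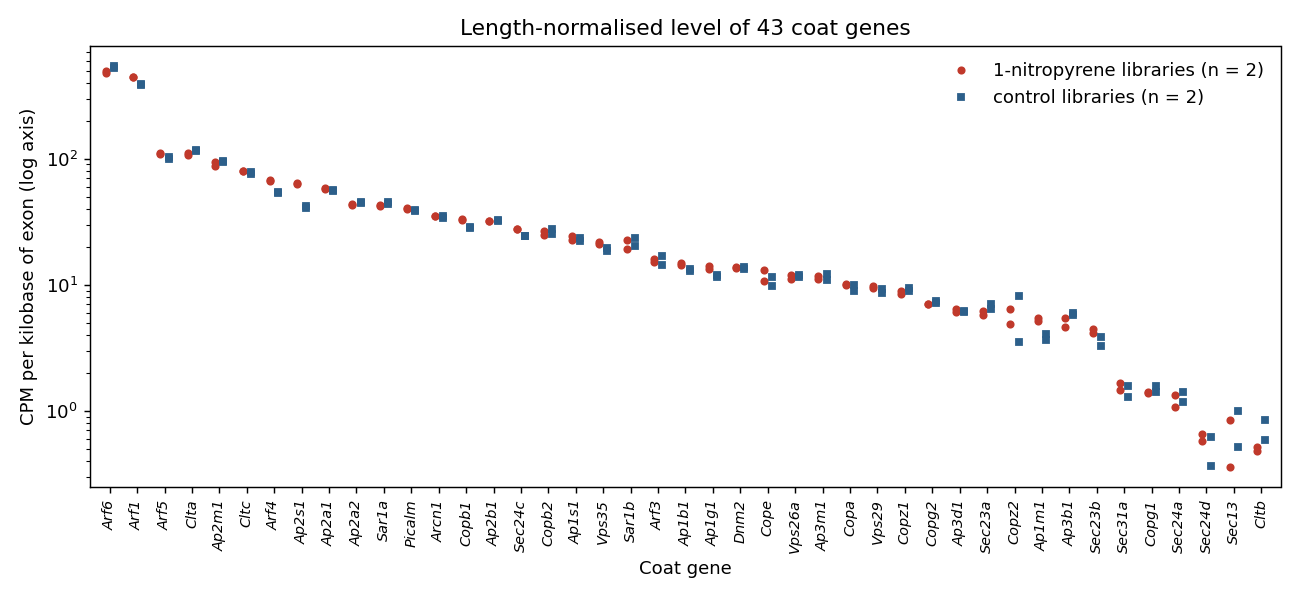
Level of each tested coat gene in each library in CPM per kilobase of exon, on a log axis, in order of the 1-nitropyrene mean (red circles 1-nitropyrene, blue squares control, n = 2 each). Levels run from 487 for Arf6 to 0.501 for Cltb in 1-nitropyrene means, and the distance between groups is small beside that range.

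The 96 other genes of these pathways, in 6 lists, were measured for comparison, and 72 of them were tested: 8 rose and 12 fell. With 27.8% called, they too lay near the 24.5% of all tested genes. Of the retromer partners, 5 of 14 tested members were lower and 0 higher by edgeR, beside 11.2% of all tested genes lower and 13.2% higher; DESeq2 called Washc3 of these 5. Washc3, a subunit of the actin-nucleating WASH complex, had 26.7 and 24.2 CPM with 1-nitropyrene and 34.4 and 39.0 CPM in control (log2 fold change -0.51, SE 0.11, adjusted p = 5.35e-05, edgeR). The sorting nexins Snx1 (25.2 and 26.7 CPM against 35.0 and 32.8 CPM) and Snx27 (114 and 116 CPM against 131 and 133 CPM), which sort cargo with the retromer, fell with adjusted p = 0.00311 and 0.00232. DESeq2 did not call Snx1 or Snx27 (adjusted p = 0.0953 and 0.0657).

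Cargo receptors moved both ways, with 2 of 12 tested higher (16.7%) and 3 lower (25.0%), beside 13.2% and 11.2% of all tested genes. The transferrin receptor Tfrc, a cargo of AP-2, had 430.3 and 463 CPM with 1-nitropyrene and 336 and 337 CPM in control (log2 fold change 0.41, SE 0.04, adjusted p = 1.1e-26, edgeR). Ergic2, a cycling protein of the ER-Golgi intermediate compartment, had 162 and 167 CPM against 119 and 122 CPM (0.45, SE 0.05), with 959 bp of exon on the strand opposite Far2 and 4732416N19Rik, while Ergic1 had 64.5 and 72.7 CPM against 82.3 and 87.4 CPM (-0.30, SE 0.07). These related proteins, which bind each other, were called in opposite directions.

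The Arf regulators had 2 of 13 tested members higher (15.4%) and none lower, beside 13.2% and 11.2% of all tested genes. Both are exchange factors that load Arf1 and Arf3 with GTP at the trans-Golgi: Arfgef1 had 321 and 319.5 CPM with 1-nitropyrene against 302 and 283 CPM (adjusted p = 0.00865, edgeR), and Arfgef2 33.7 and 31.7 CPM against 26.6 and 25.4 CPM (adjusted p = 0.0200). DESeq2 called neither (adjusted p = 0.122 and 0.195). Cyth3, an exchange factor for plasma membrane Arfs, had 9.09 and 10.6 CPM against 12.7 and 13.3 CPM and was not called (adjusted p = 0.101).

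Clathrin accessory genes had 3 of 16 tested members higher (18.75%) and 1 lower (6.25%), beside 13.2% and 11.2% of all tested genes. Hspa8, the chaperone that strips clathrin from vesicles among its many other tasks, had 582 and 581 CPM with 1-nitropyrene and 461 and 433 CPM in control (0.38, SE 0.03, adjusted p = 3.95e-27, edgeR). The endocytic adaptor Epn1 had 253 and 262 CPM against 233 and 218 CPM (0.19, SE 0.04), and Clint1, its Golgi relative, 107 and 108 CPM against 94.0 and 94.4 CPM (0.19, SE 0.06). Other adaptor subunits had 1 of 13 higher (7.69%) and 3 lower (23.1%), beside the same shares of all tested genes. Among them Ap3s1, a small AP-3 subunit, had 169 and 168 CPM against 153 and 148 CPM. Ap1s2, a small AP-1 subunit, had 35.8 and 32.0 CPM against 40.4 and 42.7 CPM. The Arf-dependent adaptor Gga1 had 23.7 and 25.1 CPM against 29.99 and 31.5 CPM. In the list of COPII assembly genes none of 4 was called by edgeR, beside 24.5% of all tested genes. Of the 4, 1 had an unadjusted p under 0.05, beside 2651 of all 7738 tested genes. Tfg, which organises exit sites, had 85.8 and 81.8 CPM against 76.3 and 74.0 CPM. The scaffold Sec16a had 60.5 and 59.0 CPM against 54.9 and 55.2 CPM. Preb, the exchange factor for Sar1, had 16 and 18 counts against 12 and 6. Of all calls in these 6 lists, DESeq2 made those of Tfrc, Ergic2, Hspa8, Epn1, Washc3 and Ergic1 and no others.

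**Figure D5:**
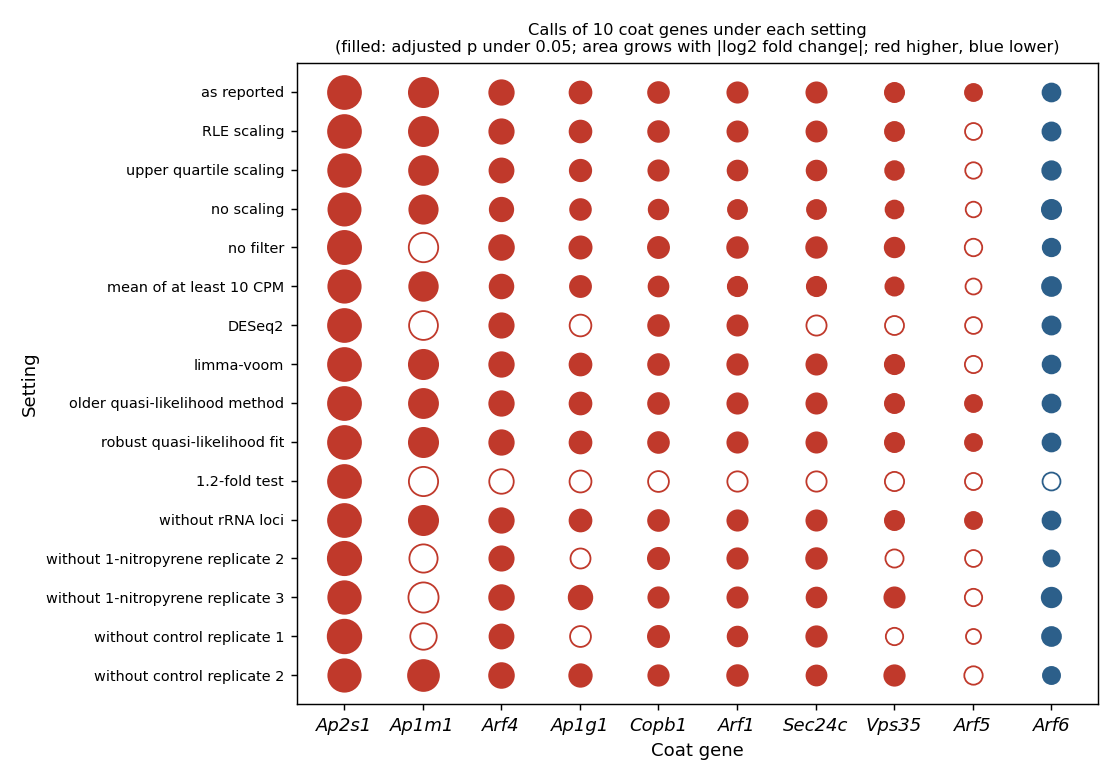
Each column is a called coat gene and each row a setting of the analysis; a filled circle passed an adjusted p of 0.05, an open one did not, the area grows with the size of the log2 fold change, and red is higher and blue lower with 1-nitropyrene. Ap2s1 is filled in all 15 alternatives, Arf4, Arf1, Copb1 and Arf6 in all but the test against a 1.2-fold change, and Arf5 in 3. Against a 1.2-fold change, 5.85% of all tested genes and Ap2s1 alone of the coat genes were called.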

How the data were processed

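The deposited table holds raw counts per gene, 1 column per library. Tools listed in the submitters' processing notes are HISAT2 (2.1.0), featureCounts (1.6.3) and DESeq2, with the build GRCm38 (mm10). The kit keeps strand, per the labels' protocols; the sources used here do not give the annotation release or whether counting used strand. Symbols, coordinates, exon lengths and overlaps came from GENCODE M21 on GRCm38 (105 of 53465 identifiers unmatched).

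Counts were fitted with edgeR 4.0.16 in R 4.3.3: filterByExpr, TMM factors, the quasi-likelihood method of edgeR 4 and a two-sided test of treatment. The dispersion was 0.000546 with infinite prior degrees of freedom. Standard errors are the log2 fold change over the square root of F. The method was tested on simulated data with a dispersion of 0.001, above the fitted one. It recovered 38.8% of 1.25-fold changes, 67.2% of 1.5-fold changes and 86.4% of 2-fold changes, and 1.54% of its calls were false. These rates were not split by level. The coat genes had a higher median level than all tested genes, and the share of their changes that would be missed was not tested. Chi-square per degree of freedom was 1.62 between controls and 2.05 between treated libraries, so no libraries were merged. Alternatives were other scalings, filters and tests (limma 3.58.1, DESeq2 1.42.0) and each library left out.

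Members and lists were chosen with earlier results of these data known. Values are printed for the 24 tested members with the smallest p and for others that account for their class, and for up to 3 genes per additional list. Vps26b, Ap3s2, Ap1g2 and Ap1s3 from those lists were added after seeing the data. Intervals and floors cover counting error only.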

Additional observations from a re-analysis of the deposited data

How the results depend on the processing

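No called coat gene changed direction under any of the 15 alternatives. Calls of Ap2s1 held in all of them, and those of Arf4, Arf1, Copb1 and Arf6 in all but the test against a 1.2-fold change. Coat genes called higher numbered 9 as reported, 4 by DESeq2, 1 against a 1.2-fold change (Ap2s1) and 5 to 9 with 1 library left out (5 without 1-nitropyrene replicate 2 and 5 without control replicate 1). Coat genes called lower numbered 1, against 2 without scaling, 2 at a mean of at least 10 CPM, 0 against a 1.2-fold change and 1 to 2 with 1 library left out. Over all genes, 1024 higher and 870 lower became 517 and 319 by DESeq2 and 239 and 214 against a 1.2-fold change, 532 lower without a filter, and 690 to 861 higher and 511 to 647 lower with 1 library left out. Of the other pathway genes, an alternative added after seeing the data, 8 higher and 12 lower became 4 and 2 by DESeq2, 3 and 0 against a 1.2-fold change, 6 lower without a filter, and 4 to 7 and 5 to 10 with 1 library left out. The cause of these shifts was not tested.

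Among coat genes not called, 14 changed sign somewhere. Without scaling Arcn1 was at -0.0052, Arf3 at -0.0089 and Dnm2 at -0.029; at 10 CPM Arf3 was at -0.0021 and Dnm2 at -0.022; Dnm2 was at -0.0024 with RLE, -0.013 with upper quartile scaling and -0.00011 in limma-voom; Ap3m1 was at 0.0041 without a filter and Copz2 at -0.045 in DESeq2. With 1 library left out the log2 fold change ran from -0.10 to 0.028 for Copb2, -0.019 to 0.28 for Cope, -0.53 to 0.67 for Copz2, -0.0064 to 0.049 for Arcn1, -0.95 to 0.27 for Sec13, -0.29 to 0.038 for Sec24a, -0.025 to 0.76 for Sec24d, -0.0012 to 0.27 for Sec31a, -0.17 to 0.083 for Sar1b, -0.11 to 0.12 for Arf3, -0.031 to 0.040 for Dnm2, -0.014 to 0.083 for Ap3d1, -0.10 to 0.062 for Ap3m1 and -0.091 to 0.026 for Vps26a. Fits that lack 1 library borrow the spread of its group from the other group's pair. DESeq2 gave no adjusted p for Sec13, Sec24d and Cltb. No paired analysis was possible because the groups share only replicate number 2. Depth limits the genes under about 50 counts per library (Sec13, Sec24d, Cltb), whose intervals span a fall and a rise.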
